A study of Drosophila melanogaster with 4 samples.

Results

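Ribosome footprints of Drosophila melanogaster ovaries were compared between flies lacking NSUN2 (genotype NSUN2 KO, strain W1118) and wild-type flies of strain W1118. The comparison rests on 2 of the study's 4 libraries, 1 footprint library per genotype, and the remaining 2 are the matching poly(A) mRNA libraries. The members are all 2860 genes that the tables list, and each carries a listed 5-methylcytosine (m5C) level of at least 0.1, so genes without such a level were not analysed here. Neither the age of the flies nor the kind of knockout allele nor the number of animals pooled is stated in the labels. With 1 library per genotype there is no replicate check, so differences between genotypes below are differences between 2 libraries and carry no p-value.

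NSUN2 is an RNA methyltransferase that places a methyl group on carbon 5 of cytosine in tRNAs and in some mRNAs. On tRNAs this mark is known for protecting the molecule from cleavage. A ribosome that is reading a message shields a short stretch of it from nuclease, and sequencing of these footprints shows how much ribosome sits on each message. The value of a gene therefore follows both the amount of its mRNA and how densely that mRNA is occupied. The ovary holds germline cells, among them the nurse cells and the oocyte, and the somatic follicle cells around them. In such whole-tissue samples fewer cells of a type and less RNA per cell cannot be told apart.

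The deposited value is a signal per gene that is scaled to library depth and to gene length. Its digits allowed whole reads to be recovered for all 2859 genes with a value above 0 in a footprint library. These came to 2521712 reads in NSUN2 KO and 1323706 in WT, and the median gene had 308 in NSUN2 KO and 164 in WT. In NSUN2 KO 336 genes had fewer than 50 recovered reads, and in WT 611 had. Recovered reads over the listed genes were thus 1.91 times as many in NSUN2 KO, and the wild-type side limits the precision of most differences. Reads are exact or too low by a whole factor, so counting intervals are if anything too wide, and they cover counting error only, not the copying of molecules by amplification.

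Symbols could be assigned to 18 of the 2860 identifiers. Nsun2 is not among these 18, and it was not determined whether one of the unnamed identifiers belongs to it, so the knockout is not checked by a value of its own gene. No marker of germline, follicle cells, muscle, fat body, blood cells, neurons or gut could be matched to an identifier, so the labelled tissue was not checked against its markers.

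Most messages carried similar footprint levels in both genotypes. The difference of a gene is given as log2((NSUN2 KO value + 1)/(WT value + 1)), on which low values are pulled towards 0. Its median over all 2860 genes was -0.05, and the middle of the distribution, from the 25th to the 75th percentile, ran from -0.37 to 0.24. In 2241 genes, 78.4% of the total, the 2 libraries lay within 1.5-fold of each other. Footprint values of the 2 libraries had a Spearman rho of 0.960 across the 2860 genes, which are not independent replicates and share the length scaling.

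The tail of lower genes was the longer one. At least 2-fold higher in NSUN2 KO were 51 genes (1.78% of those listed), and at least 2-fold lower were 119 (4.16%). At 1.5-fold the counts were 230 higher (8.04%) and 389 lower (13.6%). At 3-fold they were 9 and 17, and at 4-fold 4 and 5. The difference was below -0.94 in the lowest 5% of genes and above 0.70 in the highest 5%. Of the 51 genes, 49 had a 95% counting interval above equality, and of the 119, 117 had one below it. These genes were picked on the same values that give the intervals, so these counts are no separate support. Over all 2859 genes with an interval it lay above equality in 641 (22.4%) and below it in 836 (29.2%). Among the 2073 genes with at least 200 reads over both libraries, the SD of the log2 ratio over genes was 0.518, against 0.125 from counting error alone. This says nothing of the genotype, because the spread between libraries of the same genotype is unknown. With at least 200 reads required, 29 genes were at least 2-fold higher and 68 lower, and with a pseudocount of 5 there were 31 and 62.

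**Figure D1:**
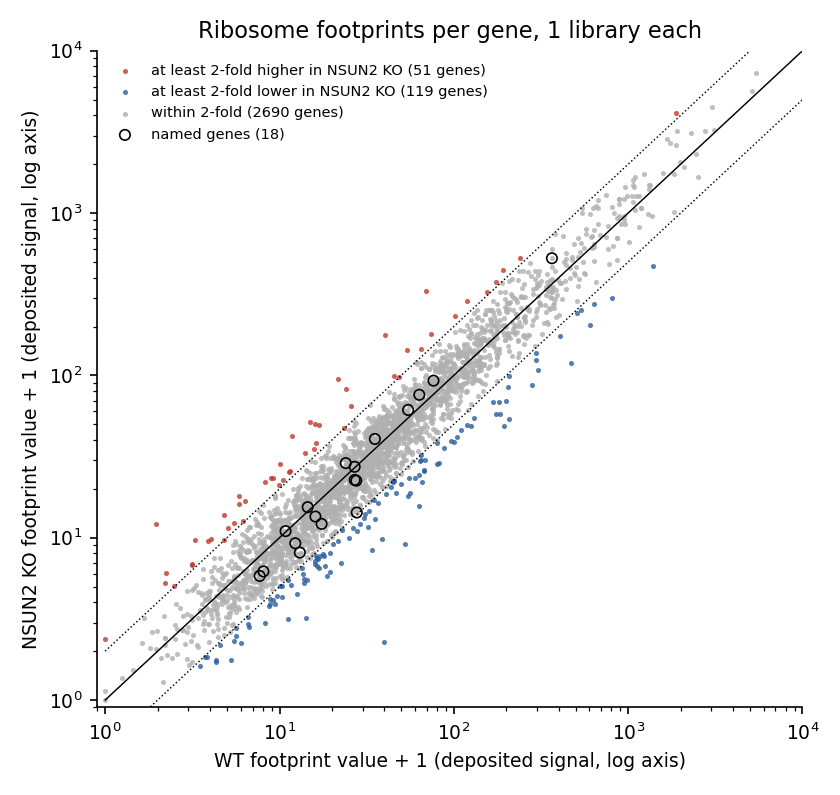
Footprint value plus 1 in NSUN2 KO (vertical) against WT (horizontal) for each of the 2860 genes, both on log axes, with equality as a solid line and 2-fold as dotted lines. The 119 blue genes at least 2-fold lower in NSUN2 KO outnumber the 51 red genes that are higher, and none of the 18 named genes (circles) lies past 2-fold.

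FBgn0026079 was the gene furthest below wild type. Its footprint value was 1.28 in NSUN2 KO and 38.8 in WT, from 17 recovered reads in NSUN2 KO and 257 in WT. On the scale with 1 added it was 17.5-fold lower, and the 95% counting interval of the ratio without the added 1 ran from 18.6-fold to 53.05-fold lower. All counting intervals below are likewise of the ratio without the added 1. Its mRNA value was also lower, at 1.17 in NSUN2 KO and 25.2 in WT. FBgn0034253 was the next lowest, and its mRNA differed far less. It had 8.09 in NSUN2 KO footprints and 51.7 in WT footprints, 5.80-fold lower with an interval from 5.49-fold to 7.48-fold. Its mRNA value was 1.51 in NSUN2 KO and 2.28 in WT.

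FBgn0031703 was the gene furthest above wild type, with a footprint value of 11.1 in NSUN2 KO and 0.951 in WT. It was 6.23-fold higher, but the WT value rests on 5 reads, so the counting interval ran from 4.89-fold to 36.8-fold. Its log2 difference fell from 2.64 to 1.44 with a pseudocount of 5. Its mRNA pointed the other way, with 5.66 in NSUN2 KO and 10.7 in WT. FBgn0031263 rested on more reads, 1091 in NSUN2 KO and 112 in WT. Its footprint value was 330.3 in NSUN2 KO and 68.3 in WT, 4.78-fold higher with an interval from 3.98-fold to 5.93-fold. Its mRNA value was higher as well, at 208 in NSUN2 KO and 79.9 in WT.

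In footprints 1 gene was listed at 0 in NSUN2 KO and 3 were in WT, and 1 of them was at 0 in both. The other two had 1 and 3 recovered reads in NSUN2 KO, so no fold can be given, although 1 of them counts among the 51 on the scale with 1 added.

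The knockout footprints were spread over a somewhat wider range of levels. The ratio of the 90th to the 10th percentile over genes was 35.03 in NSUN2 KO and 28.6 in WT. The median value was 27.9 in NSUN2 KO and 30.1 in WT, while the 90th percentile was 182 in NSUN2 KO and 175 in WT. The 10 genes with the highest values held 14.3% of the summed values in NSUN2 KO and 11.7% in WT, and the highest 100 held 45.9% in NSUN2 KO and 42.3% in WT. Of those 100 genes, 87 were the same in both libraries. Among the 10 genes with the highest mean footprint value, 9 had a difference above 0, with a range from -0.10 to 1.14, and 1 was at least 2-fold higher.

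The genes lower in knockout footprints had longer coding sequences than the genes that were higher. The length that scales the footprint values was recovered together with the reads. Its unit is taken to be the codon, and it is too short by a whole factor where the reads are too low. The 51 genes at least 2-fold higher had a median of 360 codons, the 119 at least 2-fold lower 743, and the 2690 in between 590. Their median mRNA values, each averaged over NSUN2 KO and WT, were 36.2 for the higher genes, 25.3 for the lower ones and 34.2 for those in between.

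The 477 longest genes, of 1235 to 6697 codons, lay lower in knockout footprints than the genes as a whole. Their median footprint value was 21.4 in NSUN2 KO and 23.7 in WT, and their median difference was -0.19. In 327 of them, 68.6%, the difference was below 0, against 1570 of all 2860 genes, 54.9%, and in 297, 62.3%, it was below the median of all genes. At least 2-fold lower were 34 of the 477, or 7.13% against 4.16% of all genes, and 1 was at least 2-fold higher. The 478 shortest genes, up to 280 codons, had a median difference of 0.09, which was 0.0070 when scaled to library sums. They included 21 at least 2-fold higher, 4.39% against 1.78% of all genes, and 15 at least 2-fold lower. With at least 200 reads required these counts were 11 and 3. Genes whose length was recovered too short can also fall into this shortest band. The 4 bands between had medians of -0.04, 0.00, -0.04 and -0.09 in order of length.

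The total of reads showed the same order. The longest genes took 24.5% of the recovered footprint reads in NSUN2 KO and 31.04% in WT, and the shortest took 12.6% in NSUN2 KO and 10.3% in WT. Without the 10 longest-band genes that had the most reads, the longest genes took 21.01% in NSUN2 KO and 25.6% in WT. Across 2859 genes the difference had a Spearman rho of -0.170 with coding length. The mRNA difference of the same genes had a rho of 0.059 with coding length, and the median mRNA difference was 0.05 in the longest genes and 0.01 in the shortest. In mRNA 42 genes were at least 2-fold higher in NSUN2 KO (1.47%) and 36 lower (1.26%), and among the longest genes these counts were 2 and 1. Of the 51 genes with higher footprints 4 were also at least 2-fold higher in mRNA, and of the 119 with lower footprints 4 were also at least 2-fold lower in mRNA. Across all 2860 genes the footprint difference had a rho of 0.160 with the mRNA difference.

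Coding length came from the footprint values themselves, so exon length recovered from the mRNA values was set beside it. Both lengths can be too short by a whole factor, and the coding length in nt was at most the exon length in 2454 of 2859 genes, so in the others the exon length is too short or the unit is not the codon. By exon length the 477 longest genes had a median footprint difference of -0.20, with 33 at least 2-fold lower, 6.92% against 4.16% of all genes, and 0 at least 2-fold higher against 1.78%. The 478 shortest by exon length had 0.01, with 15 lower, 3.14%, and 14 higher, 2.93%, and the sign of that small value turned under 2 of the 3 other scalings. The rho with exon length was -0.176 across 2860 genes. Reads per gene move with length as well, with a median of 672 in NSUN2 KO and 375 in WT for the longest genes by codons, and 146 in NSUN2 KO and 73.5 in WT for the shortest. The part of depth in this pattern was not tested.

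**Figure D2:**
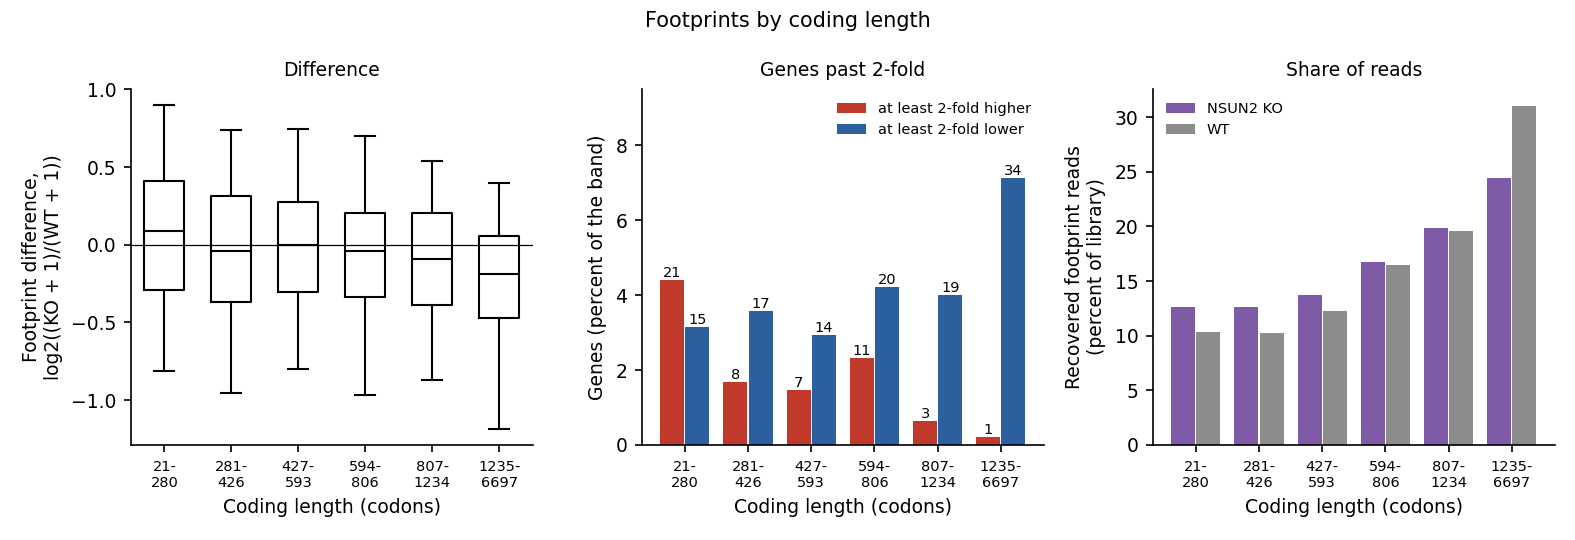
Left, footprint difference by bands of coding length (boxes from the 25th to the 75th percentile with the median, whiskers from the 5th to the 95th). Middle, percent of each band at least 2-fold higher or lower in NSUN2 KO, with gene counts above the bars. Right, percent of each library's recovered reads in the band. In the longest band 34 genes are lower and 1 is higher, and its share of reads is 24.5% in NSUN2 KO and 31.04% in WT.

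Messages with much mRNA tended to have more knockout footprints, and those with little mRNA fewer. The mRNA level is the mean of the mRNA values in NSUN2 KO and WT, which the footprint difference does not use. The 477 genes with the least mRNA had a median footprint difference of -0.16, with 9 genes at least 2-fold higher, 1.89% against 1.78% of all genes, and 30 lower, 6.29% against 4.16%. The 477 with the most mRNA had 0.13, with 11 higher, 2.31%, and 7 lower, 1.47%. These abundant messages took 42.9% of the recovered reads in NSUN2 KO and 37.2% in WT. The rho of the footprint difference with mRNA level was 0.195 across 2860 genes.

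Long messages are also the scarce ones, with a rho of -0.391 between coding length and mRNA level, so length was read within 3 groups of equal size by mRNA level. In the lowest group the median difference was -0.06 for the shortest genes, -0.11 for the middle ones and -0.18 for the longest. In the middle group these medians were -0.05, -0.07 and -0.14. In the highest group they were 0.10, 0.04 and -0.02. The order by length was thus the same in the 3 levels, and within each length band the most abundant messages had the highest median. The levels do not hold mRNA constant. From the shortest to the longest genes, the median mRNA value was 92.4, 79.1 and 67.7 in the highest group. In the lowest group it was 15.1, 16.1 and 12.6, so length and mRNA level were not fully separated. The 480 long genes of low mRNA level held 38 of the 119 genes that were at least 2-fold lower, 7.92% of that cell, and 2 of the 51 that were higher.

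**Figure D3:**
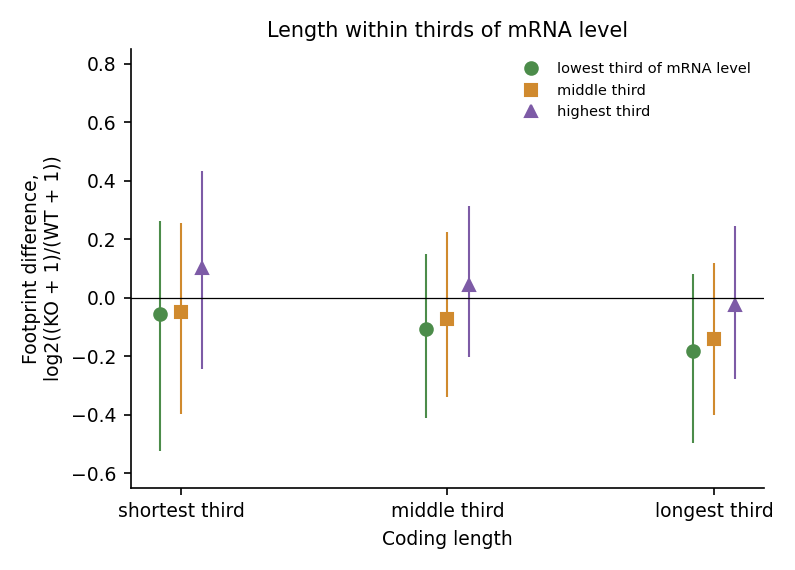
Median footprint difference, log2((KO + 1)/(WT + 1)), of genes in 3 groups of coding length (horizontal), with separate symbols for 3 groups of mRNA level and lines from the 25th to the 75th percentile. The median falls with length in each mRNA level, from 0.10 to -0.02 in the highest group and from -0.06 to -0.18 in the lowest.

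The listed m5C level is the highest level of a gene, a fraction without stated sample, site or coverage, and the tables do not say which levels depend on NSUN2. The 1027 genes below 0.2 had a median footprint difference of -0.02, the 893 from 0.2 to 0.4 had -0.06, the 435 from 0.4 to 0.6 had -0.10, and the 505 at 0.6 and above had -0.10. Under 3 alternatives the value of the lowest band was above 0. With a mean footprint value of at least 10, the bands had 0.0094, -0.020, -0.058 and -0.043 from low to high. With at least 200 reads they had 0.031, -0.042, -0.066 and -0.061. The upper bands thus lay closer to 0 there, and the highest band was not the lowest in value. At least 2-fold lower were 43, 28, 19 and 29 genes of these bands, which is 4.19%, 3.14%, 4.37% and 5.74% of each against 4.16% over all. At least 2-fold higher were 16, 20, 5 and 10, which is 1.56%, 2.24%, 1.15% and 1.98% against 1.78% over all. The rho of the difference with m5C level was -0.066 across 2860 genes.

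The median m5C level was somewhat higher at both ends of the footprint difference than in the rest. It was 0.312 in the genes at least 2-fold higher, 0.336 in those at least 2-fold lower and 0.267 in those in between. The higher genes were not gathered at high levels. They made up 2.24% of the genes from 0.2 to 0.4, 1.15% from 0.4 to 0.6 and 1.98% at 0.6 and above, against 1.78% of all genes. Of the 94 genes with a level of at least 0.9, 8 were at least 2-fold lower, 8.51% against 4.16% of all genes, and 0 were at least 2-fold higher. Their median difference was -0.08. The 10 genes with the highest levels, all at 0.968 or above, had a median difference of -0.25 and ranged from -2.02 to 0.18. Of these 10, 4 were at least 2-fold lower and 0 higher, beside 4.16% and 1.78% of all genes. The 94 genes were also longer, with a median of 740.5 codons against 586 in the genes under 0.9.

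Length moves with m5C level too, at a rho of 0.164, and the median coding length was 520 codons in the lowest m5C band and 680 in the highest. Within the shortest genes, up to 426 codons, the 4 medians of the footprint difference were 0.02, 0.07, -0.06 and 0.00 from the lowest to the highest m5C band. Within the middle genes, up to 806 codons, they were 0.00, -0.05, -0.04 and -0.03. Within the longer genes they were -0.09, -0.15, -0.16 and -0.19. The rho with m5C level was -0.014, -0.037 and -0.080 in these groups of length. The order by m5C level was thus seen in the longer genes, and the difference between the groups was not tested. Within these longer genes the median coding length still rose over the m5C bands, from 1063 to 1224.5, 1319 and 1398 codons. Their rho of the difference with coding length was -0.172, so m5C level and length cannot be told apart there.

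**Figure D4:**
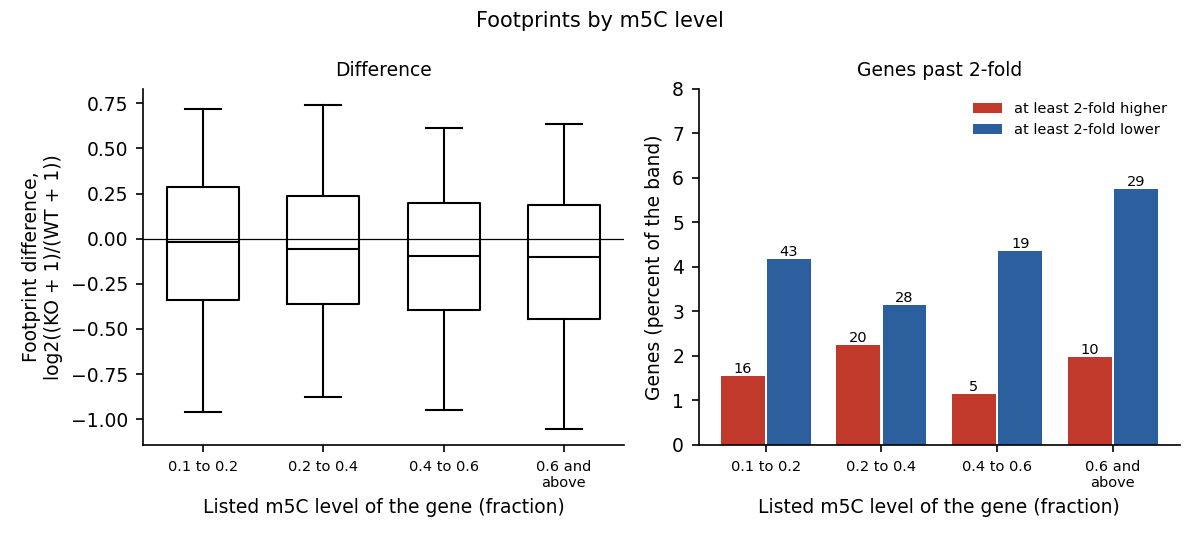
Left, footprint difference by the listed m5C level of the gene (boxes from the 25th to the 75th percentile with the median, whiskers from the 5th to the 95th). Right, percent of each band at least 2-fold higher or lower in NSUN2 KO, with gene counts. The medians run from -0.02 in the lowest band to -0.10 in the highest, far less than the height of a box.

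The 18 genes with a symbol are reported because they can be named, and they stand for no pathway. None was 2-fold apart in footprints, 9 had a difference above 0 and 9 below, and their median was -0.12. Among those above 0, pps and Vps15 lay at 0.019 each and fell below 0 when scaled to library sums. On the deposited scaling, the counting interval lay above equality in 2, below it in 5 and held equality in 11. Over all genes it lay above in 22.4% and below in 29.2%. Where recovered reads are too low, an interval that held equality may be too wide. Of the gene lists written for this tissue, these 18 hold 1 member of 25 for TOR and insulin signalling, 1 of 48 for the cell cycle and 3 of 47 for chromatin and transcription, so no list could be read as a group.

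Among the metabolic enzymes, Aldh, the mitochondrial dehydrogenase that turns acetaldehyde into acetate, had by far the most reads. Its footprint value was 526 in NSUN2 KO and 364 in WT, from 4881 reads in NSUN2 KO and 1680 in WT, and the counting interval of the ratio ran from 1.37-fold to 1.53-fold higher. Its mRNA value was 159 in NSUN2 KO and 77.04 in WT. Treh, which splits the blood sugar trehalose into glucose, had a footprint value of 39.6 in NSUN2 KO and 34.2 in WT, and Mal-B2, a maltase of starch and sugar digestion, had 27.8 in NSUN2 KO and 23.0 in WT. Both intervals held equality, with upper ends of 1.38-fold for Treh and 1.52-fold for Mal-B2.

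Coa7, an assembly factor of cytochrome c oxidase, had 91.8 in NSUN2 KO footprints and 75.4 in WT footprints. Its interval, from 0.947 to 1.58 times the WT value, held equality. Mccc2, a subunit of the carboxylase in leucine breakdown, had 8.24 in NSUN2 KO and 11.3 in WT, from 85 reads in NSUN2 KO and 58 in WT. Its interval, from 0.515 to 1.03 times the WT value, also held equality. With the recovered reads no difference was thus resolved for these 2 mitochondrial genes, and their intervals are too wide if those reads are too low.

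Of the genes for signalling and membrane traffic, AMPKalpha, the catalytic subunit of a kinase that senses low cellular energy, had 60.3 in NSUN2 KO and 53.7 in WT. Its interval ran from 0.973 to 1.30 times the WT value. Vps15, the regulatory subunit of a lipid kinase complex of endosomes and autophagy, had 9.98 in NSUN2 KO and 9.83 in WT, and its interval from 0.810 to 1.28 held equality as well. GAPcenA, a GTPase-activating protein for Rab proteins, had 11.2 in NSUN2 KO and 16.4 in WT. Its interval ran from 0.511 to 0.907 times the WT value and so lay below equality, while its mRNA value was 16.2 in NSUN2 KO and 20.03 in WT. Meltrin, a metalloprotease of the ADAM family, had 12.5 in NSUN2 KO footprints and 15.1 in WT footprints, at a log2 interval from -0.53 to -0.0006, which comes close to equality. Its mRNA value was 6.01 in NSUN2 KO and 4.24 in WT, the other way from its footprints.

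Of the ubiquitin ligases, snama, an RBBP6-like one, had 74.9 in NSUN2 KO and 62.4 in WT, from 1647 reads in NSUN2 KO and 681 in WT, with an interval from 1.10-fold to 1.32-fold higher. Herc4, a HECT-type ubiquitin ligase, had 13.3 in NSUN2 KO and 26.8 in WT. It was the lowest of the named genes, with a difference of -0.96, at 14 recovered reads in each library. These reads are lower limits, since equal counts hide any shared factor. The interval from 0.220 to 1.12 times the WT value is therefore too wide by an unknown amount, and whether the difference exceeds counting error cannot be said.

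Among the genes of chromosomes and transcription, MED1, a subunit of the Mediator complex that links activators to RNA polymerase, had 21.7 in NSUN2 KO footprints and 25.99 in WT footprints, from 571 reads in NSUN2 KO and 340 in WT. Its interval, from 0.728 to 0.957 times the WT value, lay below equality, and its mRNA value was 35.5 in NSUN2 KO and 31.4 in WT. Mau2, which loads the cohesin ring onto chromosomes, had 21.4 in NSUN2 KO and 26.6 in WT, with an interval from 0.655 to 0.996. Its upper end, -0.005 in log2, comes close to equality, as does that of Meltrin. Centring on the median difference shifts log2 values by 0.05, which is more than the distance of either upper end from 0.

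The gene pps, whose protein partners the splicing protein encoded by snf, had 26.3 in NSUN2 KO footprints and 25.98 in WT footprints. Its interval from 0.907 to 1.14 was the narrowest among the named genes that held equality, and its m5C level of 0.743 was the highest of the 18. Asx, a Polycomb-group gene of the histone H2A deubiquitinase, had 5.20 in NSUN2 KO and 7.09 in WT, from at least 31 reads in NSUN2 KO and 21 in WT. Its interval from 0.408 to 1.34 held equality, but it is too wide if these reads are too low. Whether the Asx difference exceeds counting error therefore cannot be said. At 2018 recovered codons pps was also the longest of the 18.

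Of the genes known by annotation number, CG8516 had 7.10 in NSUN2 KO footprints and 12.1 in WT footprints, with an interval from 0.442 to 0.783 times the WT value. Its mRNA value was 29.6 in NSUN2 KO and 26.9 in WT, so the lower footprint value stood beside a slightly higher mRNA value. CG42271 had 4.81 in NSUN2 KO and 6.69 in WT, and CG7091 had 14.4 in NSUN2 KO and 13.5 in WT. The intervals of both held equality, from 0.467 to 1.12 times the WT value for CG42271 and from 0.782 to 1.47 for CG7091.

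**Figure D5:**
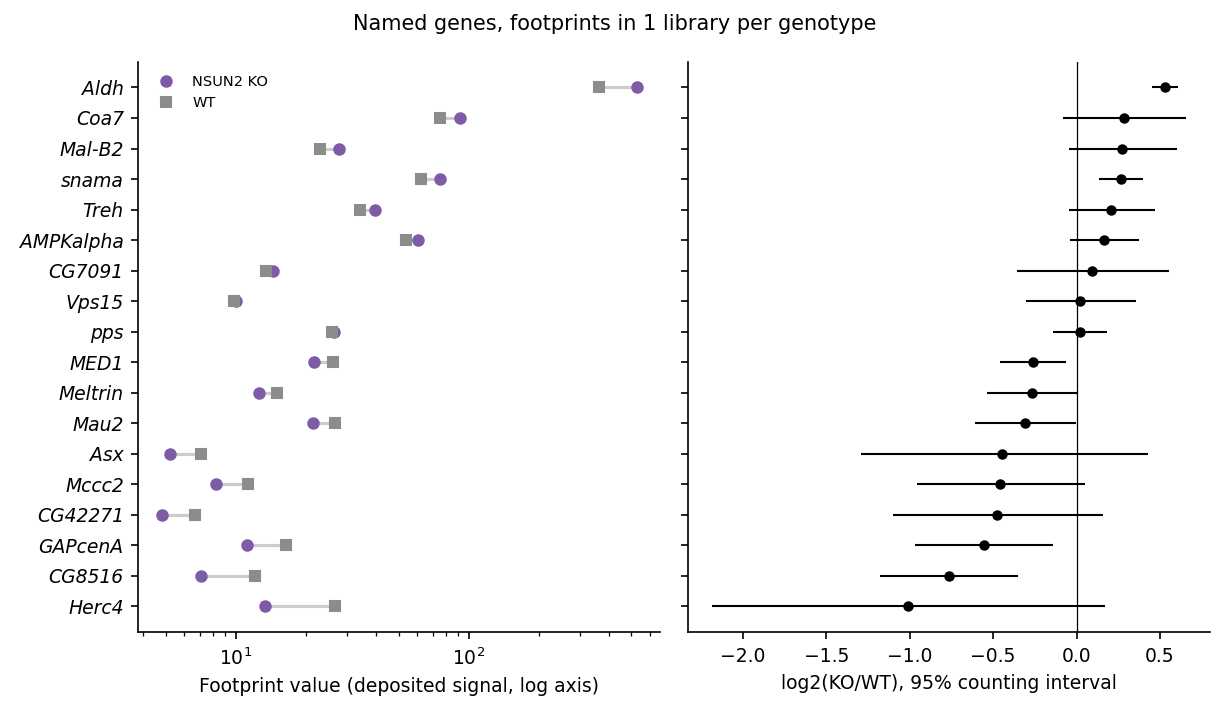
Left, deposited footprint value of each named gene in NSUN2 KO (circles) and WT (squares) on a log axis. Right, log2 ratio of NSUN2 KO over WT without an added constant, with its 95% counting interval, 1 library per genotype. The intervals of Aldh and snama lie above 0, those of MED1, Meltrin, Mau2, GAPcenA and CG8516 below it, and Herc4 and Asx have the widest. Those of Meltrin and Mau2 end close to 0.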

How the data were processed

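Per the labels' protocols, ovary lysates were digested with micrococcal nuclease, the single-ribosome peak of a gradient was taken, fragments of 28 to 30 nt were kept and ribosomal RNA was depleted. Named per the submitters' processing notes, without versions, are cutadapt, TopHat2, HTSeq and the build dm3. The expression values deposited by the authors are a signal scaled to depth and gene length, TPM or a kind of FPKM, with no scaling named in the file headers. The m5C level deposited by the authors is a fraction, identical in all tables.

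Reads and lengths were recovered from the rule that reads are whole (relative tolerance 1e-09), which solved 2859 of 2859 footprint genes, against 8 with a moved length unit. The ratio of value per read, WT over NSUN2 KO, was 2.01. In the reduced read ratios 32.4% of NSUN2 KO and 34.5% of WT numbers were even, near balance. Exon lengths came from the mRNA values in the same way. On simulated footprint libraries of 2859 genes, reads were exact for 85.03%, too low for 15.0% and too high for 0. There 92% of the 200 genes set 2.5-fold apart passed 2-fold, as did 9 of 2659 unchanged genes.

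Differences used a pseudocount of 1 and a 2-fold threshold. Counting intervals are exact (Clopper-Pearson, 95%), without pseudocount. Python 3.11.15, numpy 2.4.6 and scipy 1.17.1 were used. The members and lists were chosen with earlier results of these data known. The naming rule covered list members and extreme genes, but without symbols it could be applied to the 18 named genes and 2 identifiers in each direction. Bands of coding length, exon length and mRNA level, and the m5C level of 0.9, were chosen after the data were seen. mRNA values are given beside footprints and define no comparison.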

Additional observations from a re-analysis of the deposited data

How the results depend on the processing

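No paired analysis was possible because each genotype has 1 footprint library, and for the same reason no replicate could be left out. Of the results that answer a comparison, 82 values under other settings kept their direction and were counted as unchanged, 34 moved and 5 turned sign. Some values counted as unchanged still shifted clearly. With a mean footprint value of at least 10, the median at m5C levels of 0.6 and above went from -0.10 to -0.043. With a pseudocount of 0.1, the genes at least 2-fold lower went from 119 to 155. Of the single genes' values 139 counted as unchanged and 3 moved. Scaling to library sums took pps from 0.019 to -0.061 and Vps15 from 0.019 to -0.056. These turned signs near 0 were counted as unchanged. FBgn0031703 was counted as unchanged although a pseudocount of 5 took its difference from 2.64 to 1.44. The log2 counting interval of its ratio without an added constant started at 2.29. The 2-fold counts ranged from 29 to 62 higher and from 62 to 155 lower, with more lower than higher genes under all 7 settings. A pseudocount of 5 gave 31 higher and 62 lower genes, 12 and 6 among the shortest by coding length, and 0 higher among the longest. It moved the median difference to -0.16 for the longest genes by exon length and to -0.11 for those with the least mRNA. With a mean footprint value of at least 10 the median over genes was -0.029, and at m5C levels under 0.2 it turned to 0.0094. Scaling to library sums shifted all log2 differences by -0.08. The median over genes became -0.13, the m5C bands -0.10, -0.14, -0.17 and -0.18 from low to high, the shortest and longest genes by coding length 0.0070 and -0.27, and by exon length -0.073, a turned sign, and -0.28. The genes with the least and the most mRNA became -0.24 and 0.047. Scaling to the upper quartile turned the shortest genes by exon length to -0.0016. Centring on the median difference shifts it to 0 and gave 0.033, a turned sign, -0.0035 and -0.042 for the first 3 m5C bands, 0.14 and -0.14 for the shortest and longest genes by coding length, -0.15 for the longest by exon length, and -0.11 and 0.18 for the least and most mRNA. With at least 200 reads, a setting added after the data were seen, there were 29 higher and 68 lower genes, 11 and 3 among the shortest, with medians of -0.030 over genes, 0.13 in the shortest and 0.031, a turned sign, at m5C levels under 0.2. Without their 10 most-read genes the longest genes held 21.01% of NSUN2 KO reads and 25.6% of WT reads. Depth limits single genes most in WT, and no setting replaces a second library per genotype.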
